A study of Arabidopsis thaliana with 12 samples.

Results

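The SAUR (small auxin-up RNA) family of Arabidopsis thaliana is described here from 60 listed loci. Of these, 44 had a probe set annotated to that locus alone, among 22746 probe sets besides array controls, and each of the 44 had 1 probe set. No probe set of several loci contained a member. The 16 loci without a probe set of their own were SAUR19, SAUR20, SAUR21, SAUR22 and SAUR24 of the AT5G18 cluster, SAUR2 to SAUR5 of the AT4G34 cluster, SAUR26 and SAUR29 of the AT3G03 cluster, and SAUR40, SAUR53, SAUR61, SAUR69 and SAUR75. Probe sets of 42 members carried the plain suffix of the array maker. Those of SAUR23 and SAUR62 carried suffixes used for probes that may also match related transcripts, so their values may include other members.

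SAUR genes, most of them without introns, encode small proteins, and many of them are transcribed within minutes of auxin addition. SAUR proteins of the best studied groups bind and inhibit PP2C.D phosphatases, which keeps plasma membrane proton ATPases phosphorylated and active, acidifies the cell wall and allows cells to expand. In seedlings the family is known for driving hypocotyl elongation in darkness, shade and warmth, where the bHLH factors PIF4 and PIF5 act upstream of several members.

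Transcripts were measured in whole seedlings on 12 Affymetrix arrays, 1 per sample. Wild-type Columbia (Col) was compared with CCA1-34, a line without a working clock that overexpresses the clock protein CCA1; the promoter of its transgene is not given in the sources used here, and it is 1 line. All seedlings were raised on 3% sucrose for 4 days with 8 h of light per day, then moved to pulses (160 min lit, 320 min dark), and were collected 120 min into darkness, at 280 min (early) or 1240 min (late) after dawn. By the series' design text, Col grew in the early darkness but not in the late one, while CCA1-34 grew in both, so Col late is the 1 group without growth. Each of the 4 groups held replicates 1, 2 and 3, whose seedlings were 5, 6 and 7 days old, giving n = 3 for each group mean. Values below are given in the order of these days. A day below is a seedling age, and same-day pairs are arrays of the same age, which may or may not share a batch. Whether dishes were sown separately for each day is not said, and p-values therefore measure the spread between these samples.

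Levels are the deposited log2 values and differences are log2 differences of group means, from limma with Benjamini-Hochberg adjustment over the 22746 probe sets. "Rose" and "fell" are used of adjusted p-values under 0.05. Medians of the arrays ran from 4.01 to 4.12, and within a group the arrays correlated with r of 0.962 to 0.992. CCA1 was at 2.47, 4.21 and 6.37 in Col early, at 3.71, 2.66 and 3.43 in Col late and at 8.46 to 10.18 on the CCA1-34 arrays. The leaf gene RBCS1A was at 12.81 to 12.99 on all arrays, where 12.99 is the highest value of the series. It shows green tissue but cannot tell whole seedlings from shoots. A list of 10 light-induced genes averaged 6.16 on Col early replicate 3 and 6.80 on CCA1-34 early replicate 2, above the 4.16 to 5.70 of the other arrays, and 7 genes of starvation averaged 5.14 and 4.87 there. The 13 root markers averaged 3.93 on Col early replicate 3, the lowest of the 12 arrays, and 4.67 on CCA1-34 early replicate 2. In every group they were lower on day 7 than on day 5. The part of these differences in the SAUR values was not tested. Col early replicate 3 also had the lowest value of its group for 24 of the 44 SAUR genes, against 38.5% of all probe sets. Results that rest on these arrays are given with and without both of them. Counts from fits that leave out arrays come without the share of all probe sets in the same fit. Their changes are therefore no result about the family. SAUR values were known when the arrays were singled out, so p-values without them are no separate evidence. In whole seedlings, fewer cells of a type and less RNA per cell cannot be told apart.

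On the level of single probe sets, 18 members had a mean at or above the mean array median of 4.07, and 26 had a lower one. Over the 12 arrays, 11 members stayed above the array median and 21 stayed below it, where a signal over background was not shown. For 33 members the arrays spanned more than 1 log2 unit, and for 12 of these more than 2. The heat map of all members shows 2 features that recur below. The CCA1-34 late columns were mostly above each gene's mean, and Col early on day 7 differed from Col early on days 5 and 6.

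**Figure D1:**
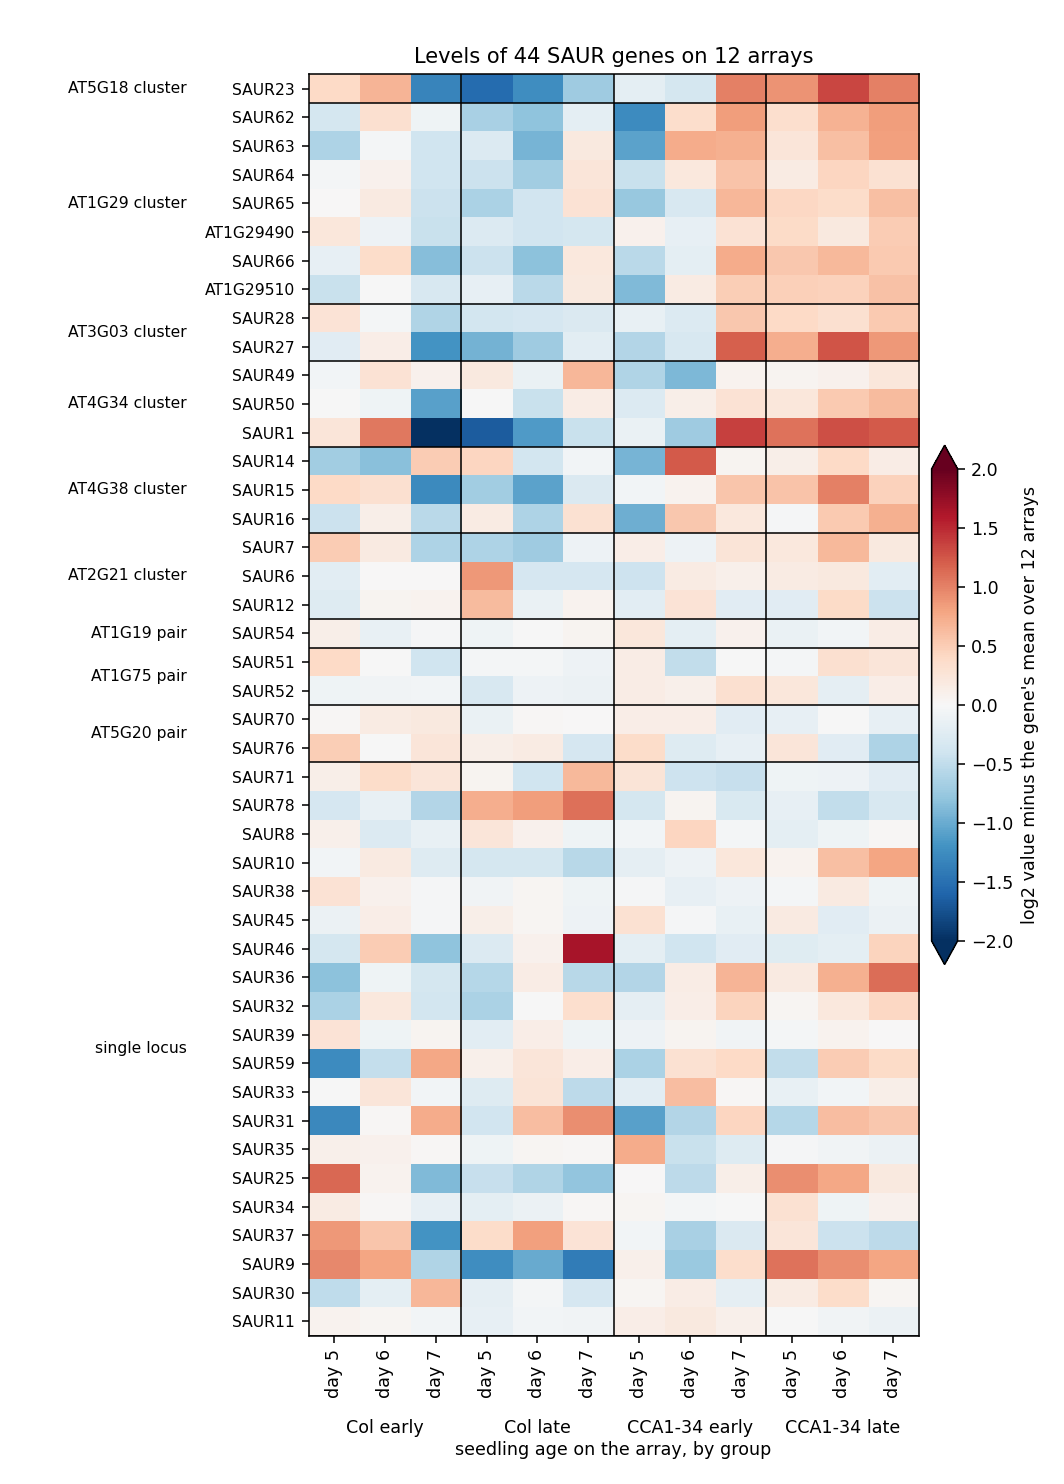
Level of each of the 44 SAUR genes (rows, by chromosome cluster) on each of the 12 arrays (columns, by group and seedling age in days), as the log2 value minus the gene's mean over the 12 arrays. SAUR23, SAUR1, SAUR27 and SAUR9 are above their means on all 3 CCA1-34 late arrays and below them on all 3 Col late arrays, and SAUR78 shows the reverse.

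At the late time, many SAUR genes had higher values in CCA1-34 than in Col. This comparison sets the line that grew in the late darkness against the wild type that did not. Line and growth cannot be told apart in it. Of 44 members, 30 were higher and 14 lower, with a median difference of 0.24, beside -0.01 over all probe sets. In 19 members all 3 CCA1-34 late arrays lay above all 3 Col late arrays, which held for 5.45% of all probe sets, and in 2 members, SAUR37 and SAUR78, all lay below (4.78%). The 19 were 9 of the 18 members with a mean at or above the mean array median and 10 of the 26 dimmer ones. Set day against day, CCA1-34 late was above Col late on each of the 3 days in 23 members, beside 14.2% of all probe sets, and below on each day in 3, beside 13.8%. At an unadjusted p under 0.05 there were 14 higher (2.35%) and 1 lower (1.43%), 15 in all (3.79%). No member passed limma's adjusted threshold, which 0.00879% of all probe sets did. Without Col early replicate 3, which is not in this comparison, SAUR9 and SAUR78 passed. With any other single array left out no member passed. Several of the 19 lie side by side in chromosome clusters, and whether their probe sets measure them separately was not tested.

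**Figure D2:**
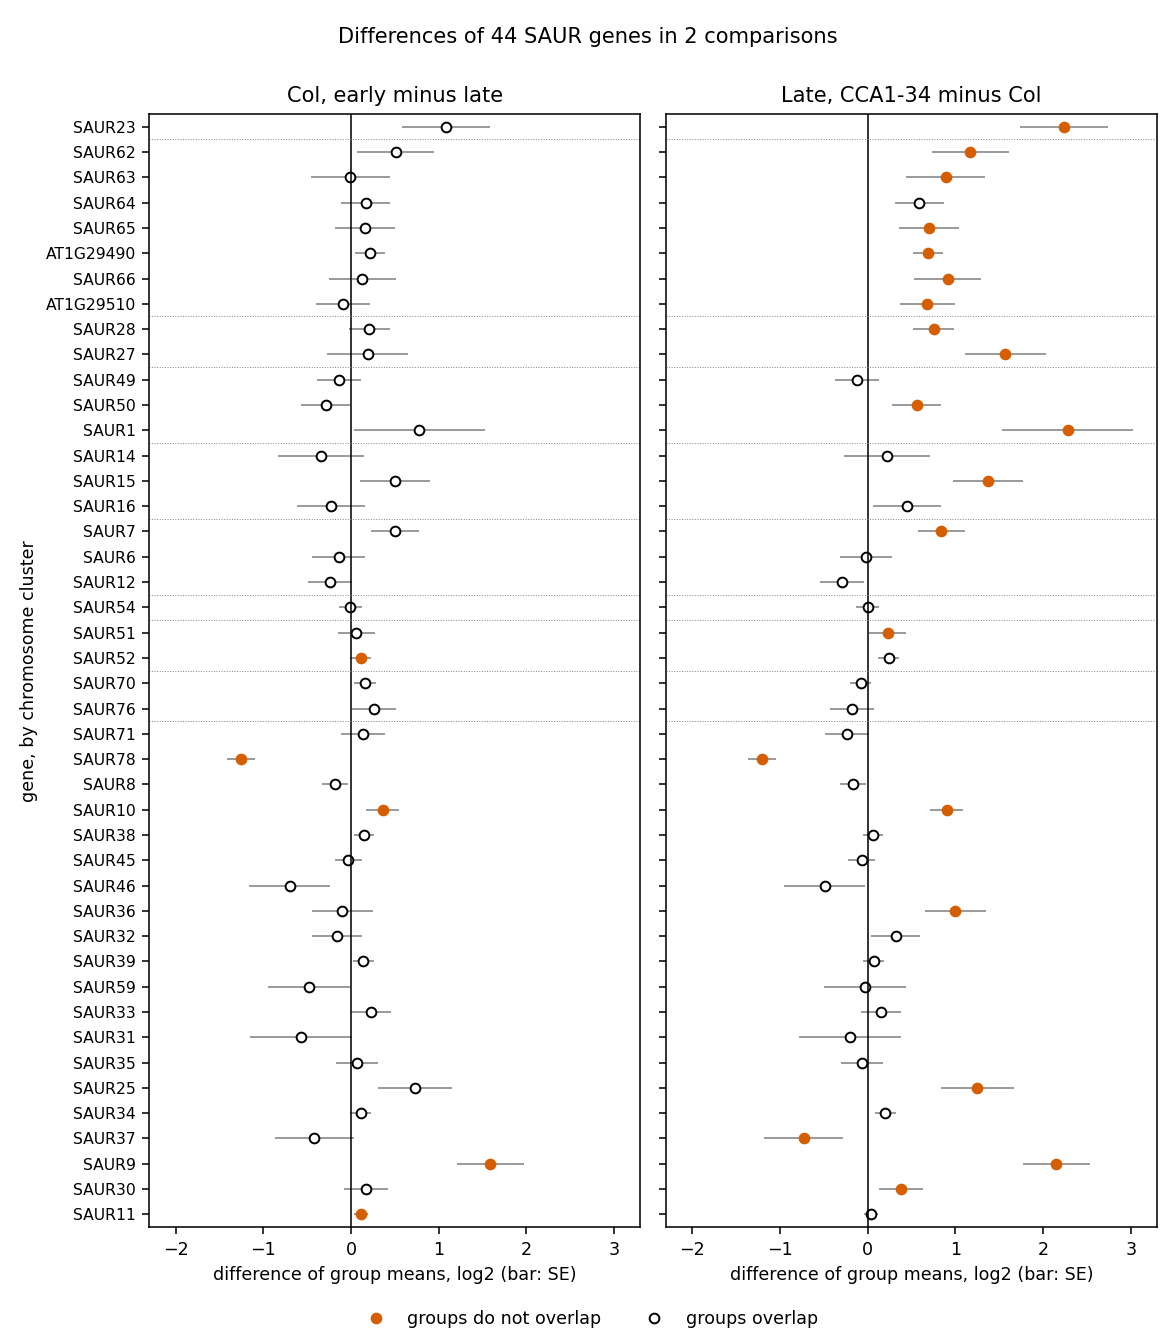
Difference of group means with its standard error for the 44 SAUR genes, for early minus late in Col and for CCA1-34 minus Col at the late time, on the log2 scale. Filled points mark genes whose 2 groups of 3 arrays do not overlap: 4 higher and 1 lower in the first comparison, and 19 higher and 2 lower in the second.

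Within Col, the family's median differed little between the times, and SAUR9 and SAUR78 had the largest differences, of opposite sign. This comparison sets growing against non-growing wild-type seedlings. These groups also differ in the time after dawn, so growth and time cannot be told apart. Of 44 members, 26 were higher early and 18 lower, with a median difference of 0.11, beside 0.01 over all probe sets. The groups did not overlap for SAUR9, SAUR10, SAUR52 and SAUR11, which were higher (5.14% of all probe sets), or for SAUR78, which was lower (3.77%). SAUR52 and SAUR11 were higher by only 0.11 each, with values below every array median. In same-day pairs, 7 members were higher early on each day (13.1% of all probe sets) and 3 lower (11.7%). limma passed no member, with 0.00440% of all probe sets passing, and 2 members had an unadjusted p under 0.05 (5.41%), SAUR9 as higher (2.66%) and SAUR78 as lower (2.74%). Without Col early replicate 3 the latter count was 10, without Col late replicate 3 it was 4, and without both arrays named above it was 11, with SAUR9 then past the adjusted threshold.

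In CCA1-34 most members had higher values late than early. There were 33 lower early and 11 higher, with a median difference of -0.22, beside 0.00 over all probe sets. In same-day pairs 13 members were lower early on each day, beside 12.5% of all probe sets, and 1 was higher, beside 13.1%. The groups did not overlap for SAUR9 and SAUR25, which were lower early (3.02%), or for SAUR11, which was higher (3.94%). limma passed none, as over all probe sets (0%), and 4 members had an unadjusted p under 0.05 (1.68%), of which SAUR11 was higher (0.923%) and SAUR9, SAUR10 and SAUR49 were lower (0.756%). That count was 13 without CCA1-34 early replicate 3, 2 without CCA1-34 early replicate 1, 1 without CCA1-34 late replicate 2 or 3, and 0 without CCA1-34 early replicate 2.

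The difference between the lines in their early-minus-late change was tested as an interaction. It was above 0 in 30 members and below in 14, with a median of 0.22, beside 0.01 over all probe sets. No member passed the adjusted threshold, nor did any other probe set (0%), and 5 had an unadjusted p under 0.05 (2.04%), namely SAUR9, SAUR23, SAUR25 and SAUR10 above 0 (1.12%) and SAUR78 below (0.928%). The sign of early minus late was opposite in the lines on all 3 days in SAUR9, SAUR10 and SAUR62, 3 members, beside 1.85% of all probe sets. The 5 at an unadjusted p under 0.05 became 11 without Col early replicate 3, 12 without CCA1-34 early replicate 3 and 10 without both arrays named above.

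At the early time the median difference between the lines was small. CCA1-34 was higher in 28 members and lower in 16, with a median of 0.07, beside -0.01 over all probe sets. SAUR52 and SAUR11 were higher without overlap of the groups (3.27%) by 0.26 and 0.13, and SAUR38 was lower (4.49%), with a difference of -0.21. These genes lay below the array medians on all arrays. In same-day pairs CCA1-34 was higher on each day in 3 members (9.76%) and lower in 3 (13.1%). limma passed none of the members (0.00440% of all probe sets), and 1, SAUR49, had an unadjusted p under 0.05 (3.57%), as lower (1.82%), with 0 higher (1.75%). That count was 6 without CCA1-34 early replicate 1, 5 without Col early replicate 3, 2 without Col late replicate 3, and 0 without Col late replicate 1, CCA1-34 early replicate 2 or CCA1-34 late replicate 3.

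When the mean of the 3 growing groups was set against Col late, 32 members were higher and 12 lower, with a median of 0.13, beside 0.00 over all probe sets. SAUR78 alone passed limma's adjusted threshold, as a fall, beside 0.0176% of all probe sets. A block for the seedling age ended this call (adjusted p 0.0523), and it was also lost without any 1 of 7 of the 12 arrays, which are named with its values below. SAUR9 and SAUR10 were the members for which all 9 arrays of growing seedlings lay above all 3 of Col late (0.673%), and SAUR78 the one for which all lay below (0.334%). At an unadjusted p under 0.05 there were 11 higher (2.85%) and 1 lower (2.47%), 12 in all (5.32%), and 7 without Col late replicate 1. Without Col early replicate 3, but with no other single array left out, SAUR9 passed the adjusted threshold as well. The comparison shares the Col late arrays with the 2 comparisons against Col late above and is no separate evidence.

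The SAUR19 to SAUR24 group of the AT5G18 cluster, whose proteins promote hypocotyl and leaf expansion, was measured through SAUR23 alone. SAUR23 (AT5G18060) was at 6.58, 6.86 and 4.86 in Col early and at 4.64, 4.94 and 5.47 in Col late. In CCA1-34 it was at 5.98, 5.83 and 7.18 early and at 7.07, 7.51 and 7.18 late. All CCA1-34 arrays lay above all Col late arrays, while Col early overlapped Col late through its day 7 array. The late difference between the lines was 2.24 (SE 0.50, adjusted p 0.458), and that of Col early minus late was 1.08 (SE 0.50, adjusted p 0.900). Without Col early replicate 3 and CCA1-34 early replicate 2, the first remained 2.24 with an adjusted p of 0.0488, and the second was 1.70 (adjusted p 0.215).

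Genes of the AT1G29 cluster, which encode the SAUR63 group of proteins that promote elongation of hypocotyls and stamens, were all higher in CCA1-34 late than in Col late. The 7 measured genes differed by 0.59 to 1.17, with a median of 0.70, and 6 of them without overlap of the groups, beside 5.45% of all probe sets. Each of the 7 also had an interaction above 0, between 0.36 and 1.16, but none of these or of the late differences passed the adjusted threshold. Early minus late was -0.65 to -0.19 in CCA1-34 for all 7 and -0.09 to 0.51 in Col. Of the 7 genes, 4 had their lowest array in CCA1-34 early on day 5 and 4 their highest in CCA1-34 late on day 7.

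**Figure D3:**
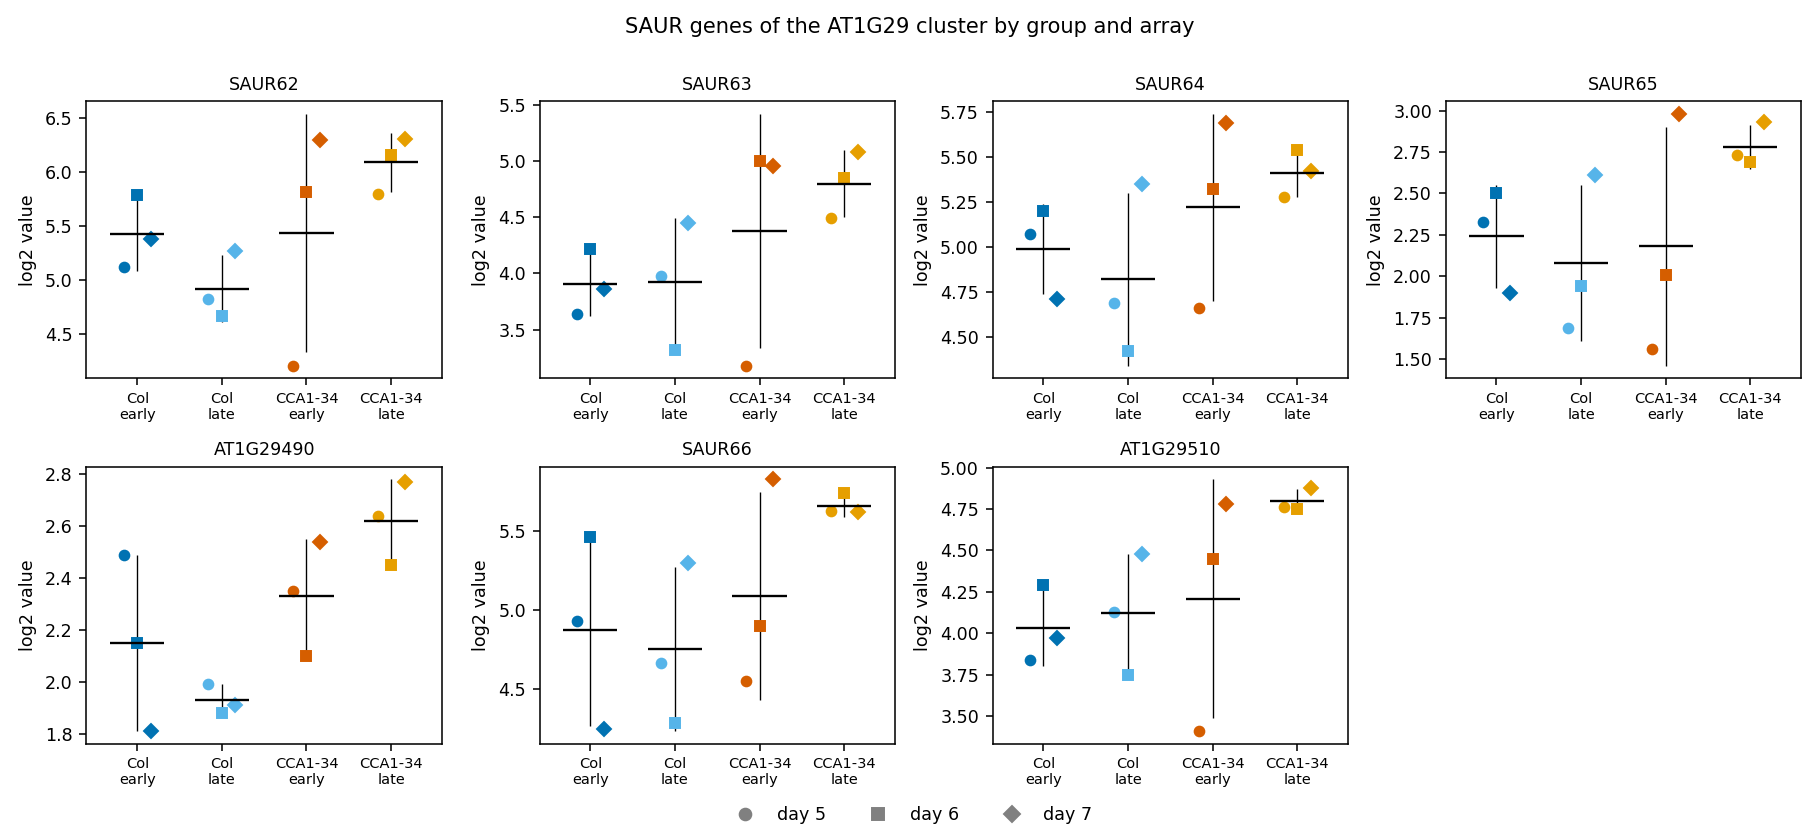
Log2 values of the 7 measured SAUR genes of the AT1G29 cluster by group (horizontal axis); symbols are single arrays by seedling age, horizontal bars are group means and vertical lines 1 SD. For all genes but SAUR64 the 3 CCA1-34 late arrays lie above the 3 Col late arrays, and CCA1-34 early is spread widest for all genes but AT1G29490.

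SAUR62 (AT1G29430) was at 5.12, 5.79 and 5.38 in Col early and at 4.83, 4.67 and 5.27 in Col late. Its values in CCA1-34 were 4.21, 5.82 and 6.30 early and 5.80, 6.16 and 6.31 late. Early exceeded late on each day in Col, and late exceeded early on each day in CCA1-34, where early minus late on day 7 was only -0.01. SAUR63, after which the group is named, was at 3.64, 4.22 and 3.86 in Col early, 3.98, 3.32 and 4.45 in Col late, 3.18, 5.00 and 4.96 in CCA1-34 early, and 4.49, 4.85 and 5.08 in CCA1-34 late. Its Col groups overlapped fully, with means of 3.91 ± 0.29 and 3.92 ± 0.57 (SD). SAUR64 was at 5.07, 5.20 and 4.71 in Col early, 4.69, 4.42 and 5.35 in Col late, 4.66, 5.32 and 5.69 in CCA1-34 early, and 5.28, 5.54 and 5.42 in CCA1-34 late. It was the cluster's exception, since Col late on day 7 reached the CCA1-34 late range.

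SAUR65 was at 2.33, 2.50 and 1.90 in Col early, 1.69, 1.94 and 2.61 in Col late, 1.56, 2.01 and 2.98 in CCA1-34 early, and 2.73, 2.69 and 2.93 in CCA1-34 late. SAUR66 was at 4.93, 5.46 and 4.24 in Col early, 4.66, 4.28 and 5.30 in Col late, 4.55, 4.90 and 5.83 in CCA1-34 early, and 5.63, 5.74 and 5.62 in CCA1-34 late. In both genes the CCA1-34 late arrays lay close together, with SDs of 0.13 and 0.07, while CCA1-34 early was lowest on day 5 and highest on day 7. All values of SAUR65 lay below the array medians. AT1G29490 was at 2.49, 2.15 and 1.81 in Col early, 1.99, 1.88 and 1.91 in Col late, 2.35, 2.1 and 2.54 in CCA1-34 early, and 2.64, 2.45 and 2.77 in CCA1-34 late, all below the array medians. AT1G29510 was at 3.84, 4.29 and 3.97 in Col early, 4.13, 3.75 and 4.48 in Col late, 3.41, 4.45 and 4.78 in CCA1-34 early, and 4.76, 4.75 and 4.88 in CCA1-34 late. The gene table gave the symbol SAUR68 for both of these loci, so they are named by locus. Each had its late groups apart, by 0.69 (SE 0.17) and 0.68 (SE 0.31).

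SAUR9 (AT4G36110), whose protein is known to bind PP2C.D phosphatases, had the largest interaction of the family. It was at 4.29, 4.12 and 2.73 in Col early and at 2.1, 2.33 and 1.93 in Col late. In CCA1-34 it was at 3.44, 2.59 and 3.69 early and at 4.42, 4.27 and 4.12 late. Col late was the lowest group with no overlap with any other, and CCA1-34 late lay wholly above CCA1-34 early. On 7 of the 12 arrays the gene lay below the array median, so the size of its differences is uncertain. The differences were 2.15 (SE 0.38, adjusted p 0.278) for the lines at the late time and 2.63 (SE 0.54, adjusted p 1.000) for the interaction. Without Col early replicate 3 and CCA1-34 early replicate 2 these were 2.15 (adjusted p 0.00119) and 2.79 (adjusted p 0.0125), and Col early minus late was 2.08 (adjusted p 0.00791). Neither array is part of the late difference, whose size therefore stayed while its SE fell to 0.14. With Col early replicate 3 alone left out the late difference was 2.15 (adjusted p 0.0293). With any other 1 of the 12 arrays left out it did not pass. Without any single array the interaction lay between 2.30 and 3.12 and did not pass.

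SAUR10 (AT2G18010), which responds to auxin and brassinosteroid and promotes stem growth, had smaller differences of the same signs. It was at 2.27, 2.50 and 2.06 in Col early, 1.97, 1.98 and 1.77 in Col late, 2.14, 2.23 and 2.55 in CCA1-34 early, and 2.39, 2.93 and 3.11 in CCA1-34 late. All of these lay below the array medians. Early exceeded late on each day in Col, late exceeded early on each day in CCA1-34, and the late lines did not overlap. The lines differed by 0.90 at the late time (SE 0.19, adjusted p 0.383), and the interaction was 0.87 (SE 0.27, adjusted p 1.000).

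**Figure D4:**
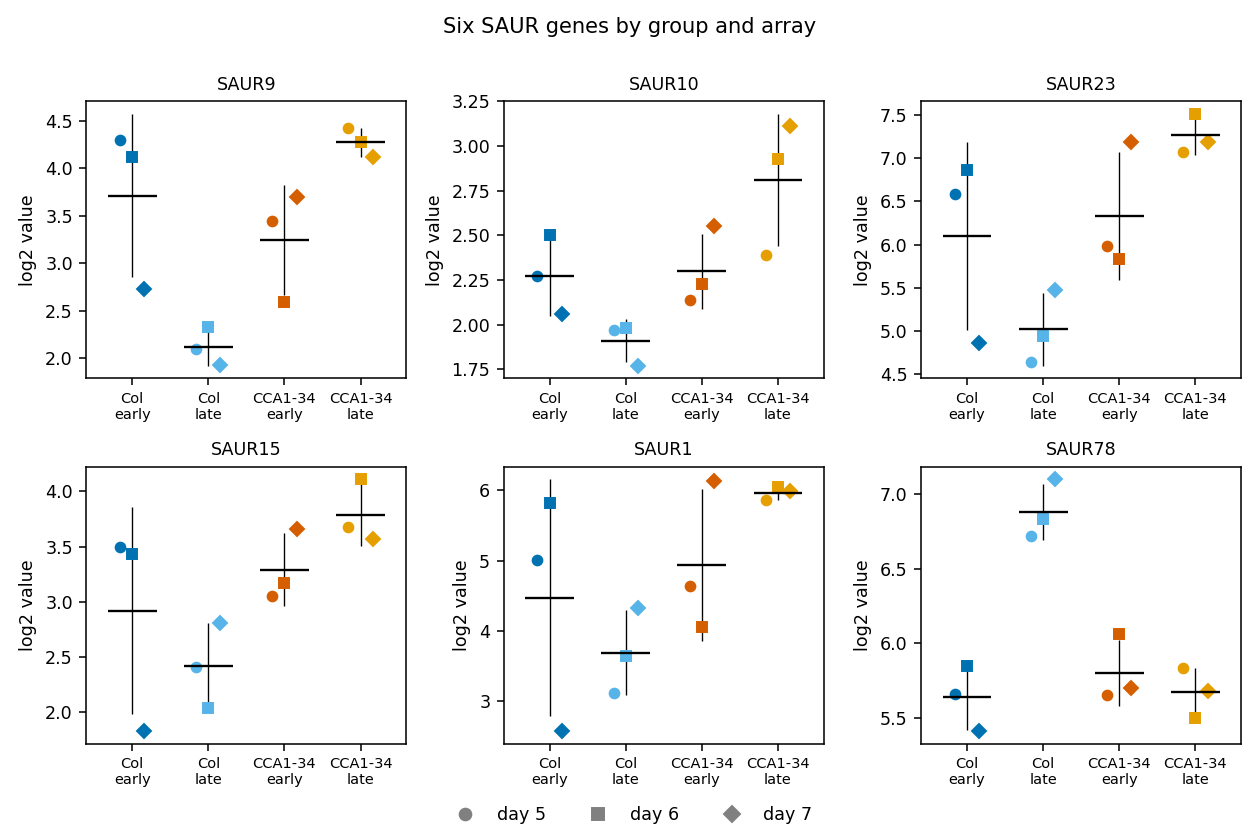
Log2 values of SAUR9, SAUR10, SAUR23, SAUR15, SAUR1 and SAUR78 by group (horizontal axis); symbols are single arrays by seedling age in days, horizontal bars are group means and vertical lines 1 SD. SAUR9 and SAUR10 are lowest in Col late on every array, SAUR78 is highest there, and Col early on day 7 is the lowest array of its group in all 6 genes.

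SAUR15 (AT4G38850) of the AT4G38 cluster, also called SAUR-AC1 and widely used as an auxin-induced transcript, was at 3.50, 3.43 and 1.83 in Col early and at 2.41, 2.04 and 2.81 in Col late. In CCA1-34 it was at 3.05, 3.17 and 3.66 early and at 3.68, 4.11 and 3.57 late. The gene lay above the array median on only 1 of the 12 arrays, so the size of its differences is uncertain. On days 5 and 6 Col early lay above all Col late arrays, and on day 7 it lay below them. The late lines differed by 1.37 without overlap (SE 0.40, adjusted p 0.866). Col early minus late was 0.50 (SE 0.40, adjusted p 0.921), and 1.05 (adjusted p 0.328) without both arrays that stood apart.

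Its neighbours SAUR14 and SAUR16, known for light responses in cotyledons and hypocotyls, differed between the late lines by 0.22 (SE 0.49) and 0.45 (SE 0.39), both with adjusted p of 1.000. In CCA1-34 early minus late was below 0 in all 3 genes, at -0.50 for SAUR15, -0.11 for SAUR14 and -0.47 for SAUR16. SAUR14 was at 6.99, 6.85 and 8.19 in Col early, 8.11, 7.32 and 7.63 in Col late, 6.76, 8.91 and 7.74 in CCA1-34 early, and 7.81, 8.08 and 7.84 in CCA1-34 late. Its highest early values were those of Col early day 7 and CCA1-34 early day 6, the arrays with high light-induced genes. Their part in this pattern was not tested. SAUR16 was at 5.44, 5.98 and 5.32 in Col early, 6.03, 5.24 and 6.17 in Col late, 4.89, 6.41 and 6.08 in CCA1-34 early, and 5.84, 6.38 and 6.58 in CCA1-34 late, with overlap of the groups in every comparison.

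In the AT4G34 cluster, SAUR1 (AT4G34770) had the largest late difference between the lines of any member. It was at 5.01, 5.82 and 2.57 in Col early, 3.11, 3.64 and 4.32 in Col late, 4.64, 4.05 and 6.14 in CCA1-34 early, and 5.86, 6.05 and 5.99 in CCA1-34 late. The late lines were apart by 2.28 (SE 0.75, adjusted p 1.000), or 0.159 as the adjusted p without both arrays that stood apart. CCA1-34 late varied little (SD 0.10), whereas Col early had an SD of 1.69 and held both high and very low values. SAUR50, which like SAUR16 responds to light, was higher in CCA1-34 late by 0.56 without overlap, and its neighbour SAUR49 differed by -0.12. SAUR49 was lower in CCA1-34 early than in Col early, with a difference of -0.58 (SE 0.25, adjusted p 1.000).

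SAUR27 and SAUR28 belong with SAUR26 to a group known for growth responses to temperature, and SAUR25 is taken with them here. SAUR27 was at 3.03, 3.38 and 2.06 in Col early, 2.31, 2.54 and 3.04 in Col late, 2.67, 2.93 and 4.44 in CCA1-34 early, and 3.97, 4.51 and 4.12 in CCA1-34 late. SAUR25 was at 3.76, 2.67 and 1.73 in Col early, 2.14, 2.01 and 1.82 in Col late, 2.61, 2.09 and 2.73 in CCA1-34 early, and 3.54, 3.38 and 2.80 in CCA1-34 late. All 3 genes had their late lines apart, by 1.57 for SAUR27 (SE 0.46, adjusted p 0.860), 1.25 for SAUR25 (SE 0.42, adjusted p 1.000) and 0.75 for SAUR28 (SE 0.23, adjusted p 1.000). SAUR25 in CCA1-34 was also lower early than late without overlap, with a difference of -0.76 (SE 0.42, adjusted p 1.000). SAUR28 and SAUR25 lay below the array medians on all arrays, and SAUR27 lay above them on only 2 of the 12.

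Of the AT2G21 cluster, SAUR7 was higher in CCA1-34 late than in Col late by 0.84 without overlap (SE 0.27, adjusted p 1.000), while SAUR6 and SAUR12 differed by -0.02 and -0.29. SAUR7 and SAUR12 lay below the array medians on all arrays. The pairs of AT1G19, AT1G75 and AT5G20 differed by at most 0.24 between the late lines in either direction.

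SAUR78 (AT1G72430), known with SAUR76 to promote growth and to interact with ethylene receptors, was the member with the largest negative differences. It was at 6.72, 6.83 and 7.10 in Col late. In Col early it was at 5.66, 5.85 and 5.41, in CCA1-34 early at 5.65, 6.06 and 5.70, and in CCA1-34 late at 5.83, 5.50 and 5.68. Every array of growing seedlings lay below every Col late array, and the 3 growing groups overlapped each other. SAUR78 fell by 1.18 in the growing groups relative to Col late (SE 0.13, adjusted p 0.0216). With the day as a block the difference was the same and the adjusted p 0.0523, and without both arrays that stood apart it was 0.00592. The call held without 5 of the 12 arrays taken singly; it was lost without any 1 Col late array, CCA1-34 early replicate 1 or 3, or CCA1-34 late replicate 2 or 3, with adjusted p up to 0.0890 and differences of -1.26 to -1.07. By single comparison the difference was -1.25 for Col early minus late (SE 0.16, adjusted p 0.0849), -1.21 for CCA1-34 minus Col at the late time (SE 0.16, adjusted p 0.0588, or 0.0354 without Col early replicate 3) and -1.38 for the interaction (SE 0.23, adjusted p 1.000). The late difference passed only without that 1 array of the 12, which is not in the comparison. Its adjusted p was up to 0.390 with other single arrays left out.

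Beside SAUR78, SAUR37 (AT4G31320) was lower in CCA1-34 late than in Col late. It was at 4.14, 3.83 and 2.07 in Col early, 3.64, 4.09 and 3.55 in Col late, 3.21, 2.62 and 2.98 in CCA1-34 early, and 3.51, 2.84 and 2.75 in CCA1-34 late. The late lines were just apart, and differed by -0.73 (SE 0.45, adjusted p 1.000). SAUR37 lay above the array median on only 2 of the 12 arrays. SAUR36 (AT2G45210), which is induced in senescing leaves, was at 3.69, 4.43 and 4.16 in Col early, 3.95, 4.67 and 3.96 in Col late, 3.93, 4.66 and 5.19 in CCA1-34 early, and 4.70, 5.23 and 5.64 in CCA1-34 late. Its late lines were apart by 1.00 (SE 0.35, adjusted p 1.000), and Col early and late overlapped. SAUR46 reached 4.36 on Col late day 7 and lay between 1.91 and 3.23 on the other 11 arrays.

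Over the 3 days, SAUR31 (AT4G00880) rose with seedling age. It was at 3.17, 4.48 and 5.20 in Col early, 4.08, 5.07 and 5.39 in Col late, 3.37, 3.87 and 4.89 in CCA1-34 early, and 3.88, 5.07 and 5.00 in CCA1-34 late. Day 5 was lowest in each group, and the 4 groups overlapped. The slope was 0.75 per day (SE 0.10, adjusted p 0.0233), 0.71 (adjusted p 0.0358) without both arrays that stood apart, and between 0.56 and 1.01 in the single groups. The call held without 7 of the 12 arrays taken singly and was lost without Col early replicate 1, CCA1-34 early replicate 1 or 3, or CCA1-34 late replicate 1 or 3, with slopes of 0.66 to 0.84 and adjusted p up to 0.110. Seedling age and any batch that goes with it cannot be told apart.

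Of the 44 slopes 25 were above 0 and 19 below, with a median of 0.01, beside 0.00 over all probe sets. SAUR31 was the 1 member past the adjusted threshold, which 0.787% of all probe sets passed, and 9 members had an unadjusted p under 0.05 (16.5%), 6 above 0 (9.21%) and 3 below (7.24%). The 9 became 16 without Col early replicate 3 and 5 without CCA1-34 late replicate 3. In 8 members day 7 was above day 5 in all 4 groups (13.1%) and in 3 it was below (11.9%), shares near those of all probe sets. Of the 18 members with a mean at or above the mean array median, 17 had slopes above 0 with a median of 0.20, beside 53.6% and a median of 0.01 over all probe sets at that level. Of the 26 dimmer members 8 had slopes above 0, beside 49.0%. Over the same days all 13 root markers had slopes below 0, with a median of -0.44 and 1 past the threshold, and their part in the SAUR slopes was not tested.

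Among the other slopes above 0 were SAUR59 (0.50 per day, SE 0.14, adjusted p 0.116), SAUR62 (0.42, SE 0.15, adjusted p 0.196), SAUR63 (0.38, SE 0.16, adjusted p 0.282) and SAUR36 (0.33, SE 0.12, adjusted p 0.188, or 0.46 and 0.0495 without Col late replicate 3). SAUR62 and SAUR63 owed most of this to CCA1-34 early, where they sloped by 1.05 and 0.89 per day, against 0.11 to 0.29 in the other groups. SAUR32 was at 5.56, 6.41 and 5.83 in Col early, 5.56, 6.19 and 6.53 in Col late, 6.02, 6.32 and 6.64 in CCA1-34 early, and 6.23, 6.41 and 6.61 in CCA1-34 late. It was higher on each later day in all groups but Col early, with a common slope of 0.28 (SE 0.09, adjusted p 0.144).

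The steepest slopes below 0 were those of SAUR37 (-0.39 per day, SE 0.16, adjusted p 0.262), SAUR25 (-0.37, SE 0.14, adjusted p 0.242), SAUR76 (-0.26, SE 0.07, adjusted p 0.116), SAUR9 (-0.22, SE 0.16, adjusted p 0.540) and SAUR35 (-0.13, SE 0.10, adjusted p 0.560). Those of SAUR37, SAUR25 and SAUR9 were steepest in Col early, at -1.03, -1.01 and -0.78 per day, and without both arrays that stood apart their common slopes were -0.19, -0.23 and -0.04. That of SAUR35 was 0.00 without CCA1-34 early replicate 1. SAUR25, SAUR35 and SAUR76 were below the array medians throughout, and SAUR76 was lower on day 7 than on day 5 in all 4 groups.

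**Figure D5:**
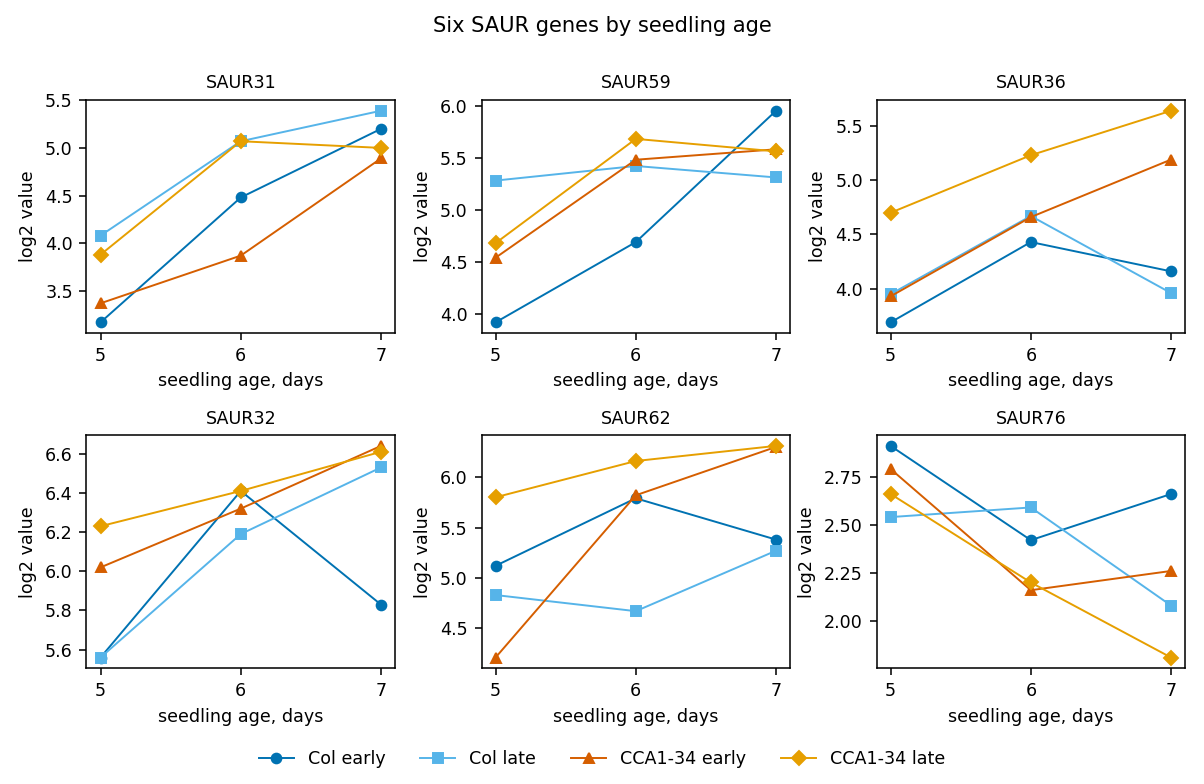
Log2 values of SAUR31, SAUR59, SAUR36, SAUR32, SAUR62 and SAUR76 against seedling age in days, with 1 line for each of the 4 groups and 1 array per point. SAUR31 is lowest on day 5 in every group, SAUR36 separates CCA1-34 late from both Col groups on every day, and SAUR76 ends lower on day 7 than on day 5 in every group.

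The genes through which SAUR proteins act, and those that control them, were read from a list of which 33 loci had a probe set of their own and AFB1 and BES1 did not. None of the 33 passed limma's threshold in the 6 comparisons of groups, beside 0% to 0.0176% of all probe sets. At an unadjusted p under 0.05 there were 3 for early minus late in Col (5.41% of all probe sets), 1 for the same in CCA1-34 (1.68%) and 0 for the lines early (3.57%). There were 4 each for the lines late (3.79%), the growing groups (5.32%) and the interaction (2.04%). For CCA1-34 minus Col at the late time, 5 of the 33 were higher (5.45% of all probe sets) and 3 lower (4.78%) without overlap, with a median of 0.00. The median of the 9 PP2C.D phosphatases, the targets of SAUR proteins, was 0.09 there, that of the 11 proton ATPases -0.11, that of the 5 auxin receptors 0.02 and that of the 5 activating ARF factors 0.15.

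PIF4 and PIF5, the bHLH factors of dark growth, had the largest differences of the list in the comparisons that involve Col late. PIF4 was at 6.52, 6.27 and 6.49 in Col early, 2.91, 3.58 and 5.23 in Col late, 6.64, 6.70 and 7.04 in CCA1-34 early, and 6.40, 7.02 and 7.15 in CCA1-34 late. Like SAUR9, it was lowest on all Col late arrays, but within Col late it was highest on day 7. In the growing groups it was higher than in Col late by 2.79 (SE 0.38, adjusted p 0.0649), and PIF5 by 2.42 (SE 0.40, adjusted p 0.0987), both without overlap. PP2C.D1 was at 8.81, 9.44 and 6.06 in Col early, 7.08, 6.79 and 8.39 in Col late, 8.38, 7.41 and 8.85 in CCA1-34 early, and 9.0, 8.95 and 9.30 in CCA1-34 late. Its late lines were apart by 1.66 (SE 0.76, adjusted p 1.000), and its day 7 value in Col early was the lowest of all 12. The proton ATPase gene AHA3 rose with age by 0.73 per day (SE 0.10, adjusted p 0.0235). It was the 1 gene of the 33 past the threshold for age, beside 0.787% of all probe sets.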

How the data were processed

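Whole-seedling RNA of 12 samples was hybridised to Affymetrix arrays as biotin-labelled cRNA made from 5 ug of total RNA, per the labels' protocols. The authors deposited log2 values, per the file headers. RMA is the method in the submitters' processing notes. Its version and settings were not given in the sources used here. This method usually makes the arrays' distributions alike, which would reduce a shift shared by most transcripts. The number of arrays limits the precision. The series table equalled the per-array files (0 cells differed, 0 columns unused).

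SAUR genes and all lists were chosen with earlier results of these data known, and counts over them carry no test. Members were found by the locus column; all 60 were in NCBI's gene table, used for names alone, and no coordinates are given. Of all probe sets, 64 controls were left out, and 21361 have 1 locus, 885 several and 500 none. Fits were made in R 4.3.3 with limma 3.58.1 (two-sided; eBayes without trend), applied to 4 group means over 12 arrays, with 8 residual degrees of freedom and no filter, and tested on simulated data. Compared were early and late within Col and within CCA1-34 (early minus late), their difference (the interaction), CCA1-34 minus Col at each time, and the growing groups minus Col late. Age was a common slope with the group as a factor. Tables were made with pandas 2.3.3.

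Every member could be named. Array values were given for SAUR9, SAUR10, SAUR15, SAUR23 and the AT1G29 cluster by rule, with calls and the 5 largest differences per direction without overlap (for age, the 5 steepest slopes). The rest of the array values were picked after they were seen, as were SAUR14, SAUR46 and SAUR32. Chromosome clusters group loci of neighbouring numbers. Because a replicate number marks a seedling age of 5, 6 or 7 days, this age was tried as a block. Deviations from the group means correlated between arrays of the same number with r of -0.32 to 0.51 (median 0.18, 18 pairs), and between arrays of other numbers with -0.52 to 0.49 (median -0.07, 36 pairs). There were 20 other settings, including a filter that left 11419 probe sets. Promoter and protein sequences were not analysed here.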

Additional observations from a re-analysis of the deposited data

Results flagged for a closer look

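SAUR9, SAUR10 and SAUR62 are given again because early and late differed in opposite directions in the lines: in each, early exceeded late on all 3 days in Col and lay below late on all 3 days in CCA1-34. This held for 3 of 44 members and for 1.85% of all probe sets. The difference itself was tested as limma's interaction. It was 2.63 for SAUR9 (SE 0.54, adjusted p 1.000), with daily differences of 2.19, 1.79 and 0.80 in Col and of -0.98, -1.69 and -0.44 in CCA1-34. For SAUR10 it was 0.87 (SE 0.27, adjusted p 1.000), with 0.29, 0.52 and 0.28 against -0.25, -0.70 and -0.57. For SAUR62 it was 1.16 (SE 0.62, adjusted p 1.000), with 0.29, 1.12 and 0.11 against -1.59, -0.34 and -0.01. None of the 3 passed.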

How the results depend on the processing

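Of the differences of single members under other settings, 543 of 579 kept their direction and side of the threshold, 13 were lost, 22 were gained and 1 turned, that of SAUR35 with age, from -0.13 to 0.00 without CCA1-34 early replicate 1 (range -0.18 to 0.00 over single arrays left out). Settings are compared by counts of members at adjusted and unadjusted p under 0.05. The shares of all probe sets under the same settings are not given, so higher counts may not be particular to the family. With array weights the adjusted counts were 2 (Col early minus late), 7 (lines late), 6 (growing groups) and 4 (age), and the unadjusted ones 13 (Col early minus late), 16 (interaction), 3 (lines early), 25 (lines late) and 24 (growing groups). In the fit to groups, Col late replicate 1 had a weight of 3.99, against 0.615 and 0.551 for Col late replicates 2 and 3. Weighted comparisons with Col late therefore lean mostly on that array. Without both arrays that stood apart the adjusted counts were 1 (Col early minus late, and interaction), 3 (lines late) and 3 (growing groups), and the unadjusted ones 11 (early minus late in Col), 1 (the same in CCA1-34), 10 (interaction), 2 (lines early) and 17 (age). Restricted to probe sets with a mean at or above the mean array median, which leaves 18 members, the unadjusted counts were 1 (each early minus late), 2 (interaction), 7 (lines late) and 3 (growing groups), the adjusted count for the lines late was 1, and the medians were -0.12 (early minus late in Col), -0.45 (the same in CCA1-34), 0.51 (lines late) and 0.20 (age). With only the compared groups the adjusted count for the lines late was 2, and after quantile normalization once more the unadjusted one for the lines early was 2. Slopes within groups had medians of -0.11 in Col early and 0.11 in CCA1-34 early.

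Leaving out 1 array at a time gave unadjusted counts of 2 to 10 (early minus late in Col), 0 to 13 (the same in CCA1-34), 4 to 12 (interaction), 0 to 6 (lines early), 7 to 15 (growing groups) and 5 to 16 (age), and adjusted counts of 0 to 2 for the lines late, the growing groups and age. With the replicate block the adjusted count for the growing groups was 0, through SAUR78, and it changed no other call. The cause of these moves was not tested. Centring or another normalization moved the median of all probe sets by at most 0.03. A gene's dimmer second probe set could not be tried, since each member had 1. The 21 members below the array median throughout may lie at background, where differences are compressed.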
